A study of Mus musculus with 16 samples.

Results

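Macrophages take up, store and release iron through a small set of proteins, and 10 genes of this set were followed here in peritoneal macrophages (PM) loaded with oxidized LDL: the importers *Tfrc*, *Slc11a1* and *Slc11a2*, the ferritin genes *Fth1* and *Ftl1*, the ferritin cargo receptor *Ncoa4*, the exporter *Slc40a1*, the ferroxidase *Cp* and the iron sensors *Aco1* and *Ireb2*. They were chosen by symbol out of 48432 genes in the table, for their part in macrophage iron handling and not for their values. Earlier results of these data were known at that point. The symbols stand on 11 entries. The extra entry also bears the symbol *Fth1* but is the processed pseudogene Fth-ps3 on chromosome 8, with values of 0, 0, 0 and 0.116, and it was not counted as the gene.

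LDAH is a protein of lipid droplets, and the study asked which genes it affects in PM exposed to oxidized LDL. There were 16 samples in 4 groups of 4, namely LDAH-Tg and LDAH-KO, each with WT controls from its own line (WT of LDAH-Tg and WT of LDAH-KO in the plots). The hemizygous transgene uses *Csf1r* control sequences and is thus expressed in myeloid cells, granulocytes included. It was made in hybrid B6D2F1 mice that were then crossed to C57BL/6. The knockout is global, and a cassette takes the place of exons 2, 3 and part of 4. The strain of all groups is given as C57BL/6J, and the control group of LDAH-Tg carries a genotype label that also names ApoE. Neither the *Apoe* genotype nor the age of the animals behind the sequenced PM was found in the sources used here. PM of all groups were collected 5 days after 3% thioglycolate and held with oxLDL at 50 μg/ml in 1% FBS for 48 h, so no group was free of oxLDL.

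The values are the authors' mean of each group in transcripts per 1000000 (TPM), which is a level per transcript length and so can be compared between genes. No value of a single sample was at hand. No difference below could therefore be set against a spread between replicates or tested, the depth is unknown, and "higher" and "lower" describe how 2 group means stand to each other. Log2 ratios were taken after adding 0.5 TPM to each mean, which makes the ratio of a low gene smaller. They are read for genes with a mean of at least 1 TPM over the 2 groups and no group at 0, and a factor of 1.5 serves as a size and not as a test. *Ldah* itself was at 124 TPM in LDAH-Tg and 28.5 TPM in their controls, and at 27.9 TPM in LDAH-KO and 44.5 TPM in theirs. Exons outside the replaced part could still give reads in LDAH-KO, which was not tested. Of 7 macrophage markers, 6 had a value in every group, with a summed level of 3580 to 5350 TPM. Most of this sum was *Cd68*, at 4960 TPM in the controls of LDAH-Tg and 3320 TPM in the WT controls of LDAH-KO. *Adgre1* (33.1 and 146 TPM) and *Itgam* (144 and 273 TPM) stood the other way between these groups, while *Csf1r*, *Mertk* and *Cd14* differed less. The seventh, *Lyz2*, was listed at 0 in 3 groups and at 10100 TPM in LDAH-Tg. All 6 erythroid markers, the globins among them, were listed at or near 0.

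Iron bound to transferrin enters cells through transferrin receptor 1, while macrophages gain much of their iron from the haem of engulfed red cells. Iron that is not used is held in the ferritin shell or leaves through ferroportin. Iron regulatory proteins bind a hairpin in the mRNA, the iron-responsive element, when iron is scarce: in the 5′ untranslated region they block translation, and in the 3′ untranslated region of the transferrin receptor mRNA they protect the message from decay. Much of this control therefore acts on protein output and is not visible in mRNA level.

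The elements are shown because they are the feature that links the exporter, the receptor and ferritin among these genes. The longest coding transcript of each gene (GENCODE M21, GRCm38) was searched on its sense strand for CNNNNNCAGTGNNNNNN in which the 5 bases before the loop pair with the last 5 (G-T pairs allowed). Of the 10 genes, 4 had a match, all in untranslated regions, against 0.631% of 21864 coding genes with a match in a UTR. *Tfrc* had 4 matches, and it was the 1 gene of all with 3 or more. These mRNAs were known to carry the element before the search. The share of all genes thus tells how rare the motif is and does not test the 10 genes. The loop is in capitals, and the 29 bases are given 5′ to 3′ on the gene's strand.
Slc40a1, 5′ UTR, chr1:45925465-45925493, minus strand: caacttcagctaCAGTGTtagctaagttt
Tfrc, 3′ UTR, chr16:32631219-32631247, plus strand: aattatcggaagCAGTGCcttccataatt
Tfrc, 3′ UTR, chr16:32631598-32631626, plus strand: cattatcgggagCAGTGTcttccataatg
Tfrc, 3′ UTR, chr16:32631663-32631691, plus strand: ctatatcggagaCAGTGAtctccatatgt
Tfrc, 3′ UTR, chr16:32631710-32631738, plus strand: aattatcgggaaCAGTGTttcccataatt
Fth1, 5′ UTR, chr19:9982732-9982760, plus strand: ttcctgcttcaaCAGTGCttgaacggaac
Ftl1, 5′ UTR, chr7:45459779-45459807, minus strand: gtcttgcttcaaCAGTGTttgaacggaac
A match is a description of the letters and was not tested for binding. The other 6 genes had no match in the transcript searched, which says nothing of their other transcripts. The search also passes over elements with another loop or an unpaired base within the 5 pairs. No match is therefore not absence of an element, and *Tfrc* may hold more than those shown.

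*Slc11a1* was the most abundant of the 8 genes with values in every group, and *Slc40a1* was among the lowest. *Slc11a1* (chromosome 1, 74375195 to 74386062) encodes NRAMP1, which moves divalent metals out of the phagosome. Its mean was 640 TPM in the controls of LDAH-Tg, 598 TPM in LDAH-Tg, 930 TPM in the WT controls of LDAH-KO and 871 TPM in LDAH-KO. Each mutant group lay slightly under its own controls, with log2 ratios of -0.097 (LDAH-Tg) and -0.095 (LDAH-KO). Its relative *Slc11a2* (chromosome 15, 100387898 to 100425072) encodes DMT1, the transporter that carries iron out of the endosome. *Slc11a2* stood at 36, 32.8, 57.0 and 51.9 TPM in the same order of groups. Its ratios were of like size, -0.13 in both mutants, and the quotient of *Slc11a1* to *Slc11a2* kept within 16.3 to 18.2 in the 4 groups.

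*Tfrc* (chromosome 16, 32608920 to 32632794), the transferrin receptor, had means of 146 TPM in the controls of LDAH-Tg, 120 TPM in LDAH-Tg, 291 TPM in the WT controls of LDAH-KO and 275 TPM in LDAH-KO. Both groups of the knockout line lay above both groups of the transgenic line. The log2 ratio was -0.28 in LDAH-Tg, where 83.3% of all genes compared lay nearer to the median ratio. In LDAH-KO it was -0.082, next to the median of all genes at -0.075.

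*Slc40a1* (chromosome 1, 45908068 to 45926523) encodes ferroportin, the sole known exporter of iron from mammalian cells. Its means were 5.19 TPM in the controls of LDAH-Tg, 4.48 TPM in LDAH-Tg, 7.70 TPM in the WT controls of LDAH-KO and 6.50 TPM in LDAH-KO. Both mutants were lower than their own controls, by log2 ratios of -0.19 and -0.23, neither of them past the factor of 1.5. The receptor exceeded the exporter in every group, with a quotient of *Tfrc* to *Slc40a1* of 28.1, 26.8, 37.8 and 42.3. The genes whose 4 means were most like those of *Slc40a1* in pattern were *Prkce*, *Tm9sf4* and *Elp4*, and for *Tfrc* they were *D1Ertd622e*, *Sec23b* and *Hnrnpa1*. Likeness was the largest difference in centred log2(TPM + 0.5) over the 4 means, among 11347 other genes, and it was at most 0.0284 for these 6 genes.

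*Cp* (chromosome 3, 19957054 to 20009145) encodes ceruloplasmin, a copper enzyme that oxidizes iron as it leaves through ferroportin. It was barely present, at 1.02, 1.17, 1.26 and 0.450 TPM in the same order of groups. The mean of LDAH-KO was 0.356 times that of its WT controls, but the mean over these 2 groups was 0.857 TPM, under the minimum of 1, so *Cp* has no ratio in the comparison of LDAH-KO. *Hps3*, which overlaps it on the opposite strand, was at 15.8 TPM in the WT controls of LDAH-KO and 15.4 TPM in LDAH-KO. In the transgenic line *Hps3* was at 25.8 TPM in the controls and 33.1 TPM in LDAH-Tg. The libraries mark the strand, but the strand setting of the counting is not given in the sources used here. Fibroblast markers stood lower beside *Cp*: 6 of 6 were lower in LDAH-KO, with a sum of 15.6 TPM against 30.1 TPM. Of the mesothelial markers 5 of 6 were lower, with a sum of 3.82 TPM against 6.84 TPM. Of all genes 66.6% were lower. Only *Pdgfra*, *Dcn*, *Col3a1*, *Upk3b* and *Wt1* had a mean of at least 1 TPM over these 2 groups, with log2 ratios from -1.312 to -0.744. The part of these cell types in the value of *Cp* was not tested, and in bulk samples fewer cells of a type and less RNA per cell cannot be told apart.

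**Figure D1:**
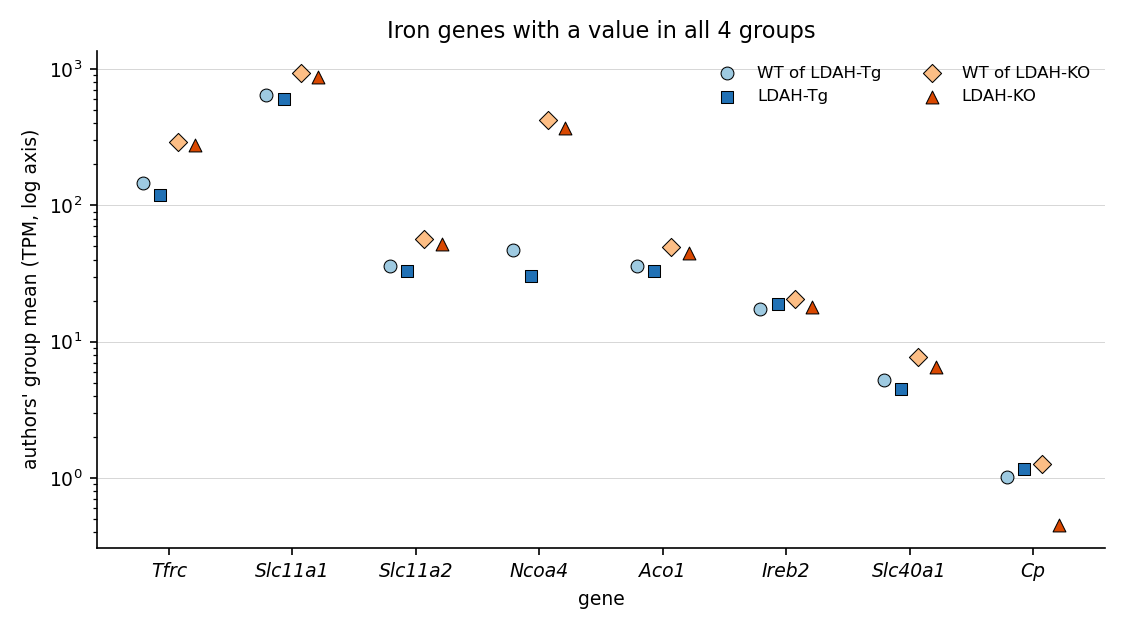
Group means (TPM, log axis) of the 8 iron genes with a value in all 4 groups, 1 point per group and no error bars, since the table holds means alone. *Ncoa4* stands at 424 and 367 TPM in the groups of the knockout line and at 47.1 and 30.4 TPM in those of the transgenic line.

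*Aco1* and *Ireb2* encode the iron regulatory proteins. *Aco1* (chromosome 4, 40143081 to 40198338) is cytosolic aconitase when it carries its iron-sulphur cluster and binds RNA when it has lost it. Its means were 35.8, 33.1, 49.7 and 44.7 TPM, in the order used above (transgenic line first, controls before mutant). *Ireb2* (chromosome 9, 54863789 to 54912530), whose protein is degraded when iron is plentiful, had means of 17.3, 18.9, 20.5 and 18.1 TPM. *Ireb2* had the narrowest range of the 8 genes with values, its highest mean being 1.18 times its lowest, and it was the 1 gene besides *Cp* that was higher in LDAH-Tg than in its controls (log2 ratio 0.12). In LDAH-KO its ratio was -0.17. The quotient of *Aco1* to *Ireb2* was 2.07 in the controls of LDAH-Tg and 1.75 in LDAH-Tg, and 2.43 and 2.47 in the knockout line. *Fbxl5*, the ligase subunit that marks the *Ireb2* protein for degradation, was at 36.8, 34.2, 49.5 and 46.3 TPM (named for its function, after its values were seen).

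*Ncoa4* (chromosome 14, 32159865 to 32179855) encodes the receptor that carries ferritin to the lysosome so that its iron is freed. Its means were 47.1 TPM in the controls of LDAH-Tg, 30.4 TPM in LDAH-Tg, 424 TPM in the WT controls of LDAH-KO and 367 TPM in LDAH-KO. It was the 1 gene of the 10 past the factor of 1.5 in a comparison of genotypes: in LDAH-Tg its mean was 0.646 times that of the controls, a log2 ratio of -0.62. Its largest difference, however, lay between the control groups of the lines, where the WT controls of LDAH-KO had 9.0 times the mean of the controls of LDAH-Tg. In LDAH-KO it was at 0.865 times its own controls (log2 ratio -0.21).

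The transcripts of *Ncoa4* are not unique in the genome. Of the 50-base stretches of its longest coding transcript, 43.1% also occur in the processed pseudogene *Gm6768*, where reads could be counted or lost. *Gm6768* was at 0.382 TPM in the controls of LDAH-Tg, 0.196 TPM in LDAH-Tg, 2.16 TPM in the WT controls of LDAH-KO and 2.31 TPM in LDAH-KO. It was thus also higher in the knockout line, at a small part of the level of *Ncoa4*. How reads that fit both were treated was not tested, so the level of *Ncoa4* is uncertain.

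*Fth1* and *Ftl1*, the subunits of the ferritin shell, were listed at 0 in all 4 groups. *Fth1* (chromosome 19, 9980598 to 9985098) is the ferroxidase chain and *Ftl1* (chromosome 7, 45457944 to 45459884) the chain that aids mineral formation. Ferritin mRNA is abundant in macrophages, and other abundant macrophage transcripts, *Ctsd*, *Psap* and *Lgals3* (chosen after their values were seen), were also at 0 in every group while *Actb* and *Gapdh* had 2020 TPM or more. The 0 is therefore taken as a failed estimate and not as absence, and ferritin has no level or ratio here. Of 21682 protein-coding genes, 5702 were at 0 in all 4 groups.

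Copies of the ferritin genes did receive values. The 50-base stretches of the *Ftl1* transcript recur in the transcripts of 17 other genes, which hold 90.6% of them, and 73.4% occur in Ftl1-ps1 (*Gm10116* in the table). *Gm10116* was at 284 TPM in the controls of LDAH-Tg, 304 TPM in LDAH-Tg and listed at 0 in both groups of the knockout line. Other copies stood the other way round: *Gm15590* had 15.3, 16.6, 24.8 and 27.0 TPM, and *Gm20746* (Ftl1-ps2) 2.78, 3.20, 19.6 and 17.7 TPM. *Ftl2-ps* was at 0.825, 1.20, 3.57 and 3.00 TPM and *Gm12164* at 2.48, 3.46, 15 and 14.9 TPM in the same order. The *Fth1* transcript shares 4.01% of its stretches with 1 annotated gene, *Gm6977*, which was at 5.93, 6.52, 18.2 and 18.8 TPM. Within each line the 2 means of these 6 copies, where above 0, stood less than a factor of 1.5 apart. None of these values can stand in for ferritin.

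**Figure D2:**
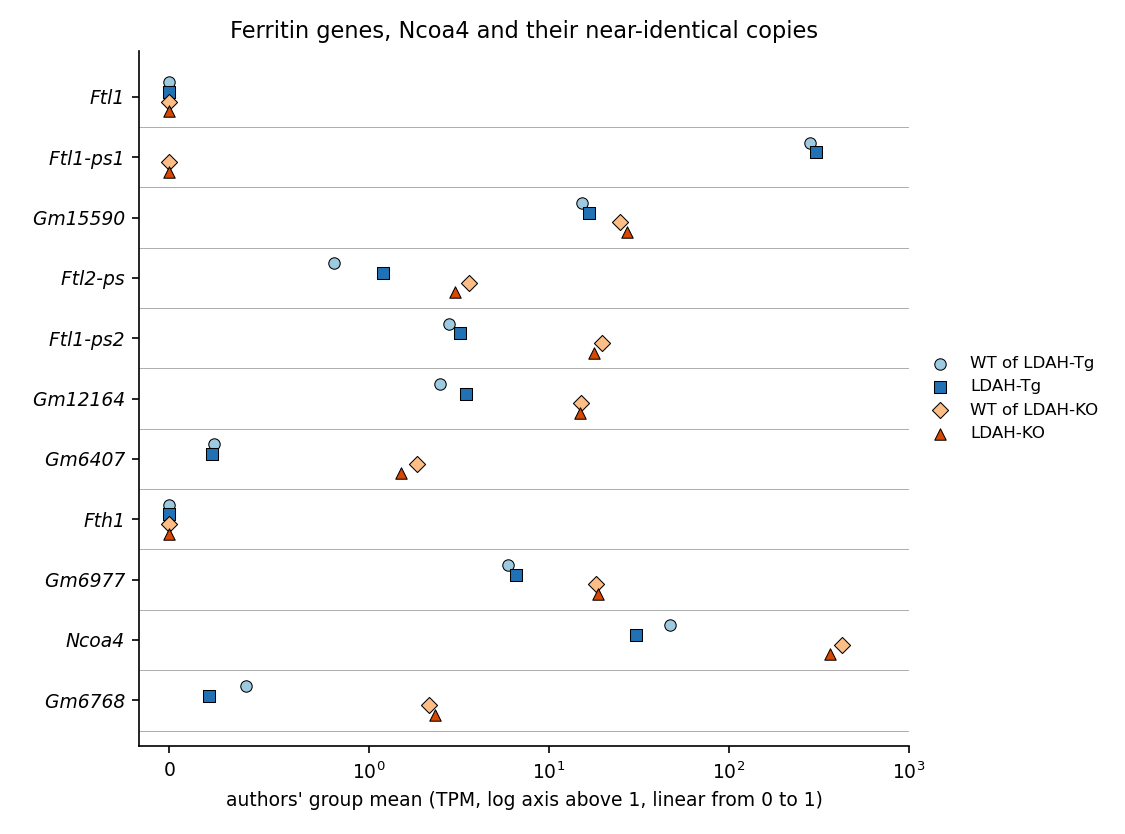
Group means (TPM, linear from 0 to 1 and log above) of *Ftl1*, *Fth1* and *Ncoa4* and, under each, the genes that share 50-base stretches with it and reach 1 TPM in some group. *Ftl1* and *Fth1* lie at 0 in all 4 groups, and Ftl1-ps1 at 284 and 304 TPM in the transgenic line alone.

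Set side by side, the genes with a ratio were mostly lower in both mutants, by little. In LDAH-Tg, 8 of the 10 genes had a ratio and 6 of these were lower than in the controls, where 49.5% of all 11395 genes compared were lower. Their median log2 ratio was -0.12 and that of all genes 0.002. Past the factor of 1.5 there was 1 of 8, *Ncoa4*, which was lower. Of all genes 1.95% passed it in either direction and 0.685% were lower by it.

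In LDAH-KO, 7 of the 10 genes had a ratio, and 7 of 7 were lower than in the WT controls, where 66.6% of all 11289 genes were lower, although *Tfrc* (0.043) and *Slc11a1* (0.029) were higher once the columns were scaled by the median of ratios. That scaling moved the median of all genes by 0.12, from -0.075 to 0.044. Relative to the median of all genes, the 7 ratios ran from -0.15 for *Slc40a1* to -0.006 for *Tfrc*, and 7 of 7 lay below it. They also did under each scaling, but median-ratio scaling moves all ratios and their median nearly alike, so it can hardly change this. *Tfrc* stood at 0.043 there, next to the median of 0.044. Past the factor of 1.5 there were 0 of 7, beside 2.22% of all genes. On the means as deposited, without that scaling, the knockout and the transgene had ratios below 0 for *Slc40a1*, *Tfrc*, *Slc11a1*, *Slc11a2*, *Aco1* and *Ncoa4*, and opposite signs for *Ireb2*. The share of all genes below 0 in both comparisons was not computed. Whether the effects of the genotypes differ was not tested.

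For 6 of the 7 genes with a ratio in all comparisons, *Ireb2* aside, the control groups of the 2 lines stood farther apart than either mutant from its controls under each scaling. For *Ireb2* this held on the means as deposited but not after median-ratio scaling (0.089 between the controls and 0.108 in LDAH-Tg) or quantile normalization (-0.008 and 0.127). Genes in general also spread more widely between the control groups. The quartiles of all genes were -0.264 and 0.612 there, -0.124 and 0.137 in LDAH-Tg, and -0.196 and 0.041 in LDAH-KO. The share of all genes that stood farthest apart between the control groups was not computed. All 8 genes with a ratio were higher in the WT controls of LDAH-KO than in the controls of LDAH-Tg, where 60.7% of all 11404 genes were higher, with the exception of *Ireb2* after quantile normalization. Past the factor of 1.5 were 3 of 8, *Ncoa4* (log2 ratio 3.16), *Tfrc* (1.00) and *Slc11a2* (0.66), and 26.5% of all genes were higher by it. *Slc11a2* no longer passed it after median-ratio scaling (0.507) or quantile normalization (0.422), which left 2 of 8. The median was 0.53 for the 8 genes and 0.175 for all genes. *Slc11a1* was at 1.45 times, *Slc40a1* at 1.48 times, *Aco1* at 1.39 times and *Ireb2* at 1.18 times its mean in the controls of LDAH-Tg. The line and any batch cannot be told apart.

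**Figure D3:**
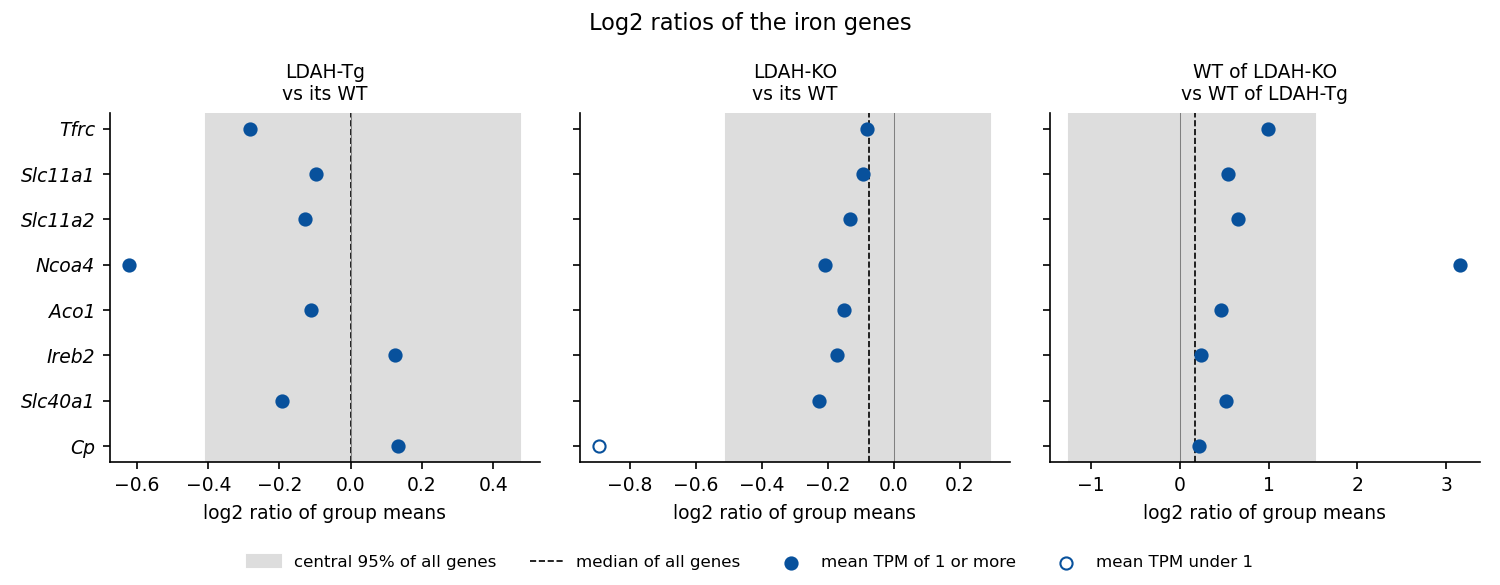
Log2 ratios of the 8 iron genes in 3 comparisons (the horizontal axes differ in range), with the central 95% of all genes in grey and their median as a dashed line. *Ncoa4* lies outside the grey range in LDAH-Tg (-0.62) and between the control groups (3.16), and *Cp* in LDAH-KO is an open point since its mean was under 1 TPM.

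The wider set of iron genes held 60 genes in 5 lists. Among those with a ratio, the counts past the factor of 1.5 were near what the shares of all genes would give. In LDAH-Tg 41 had a ratio, 27 lower and 14 higher (49.5% of all genes were lower), with 0 past the factor of 1.5 (1.95% of all genes) and a median of -0.071. In LDAH-KO 41 had a ratio, 20 lower and 21 higher (66.6% of all genes were lower), with 1 past the factor (2.22% of all genes) and a median of 0.002, while the median of all genes was -0.075. The lists were described by these counts alone.

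Among the 13 genes of transferrin and surface or endosomal uptake, 7 had a ratio, of which 6 were lower in LDAH-Tg and 5 in LDAH-KO, beside 49.5% and 66.6% of all genes. *Steap4*, a metalloreductase, was the 1 gene past the factor: it was at 2.29 TPM in the WT controls of LDAH-KO and 0.983 TPM in LDAH-KO, a log2 ratio of -0.91, and at 1.15 and 0.914 TPM in the controls of LDAH-Tg and LDAH-Tg. Its levels are low, and the lower sums of fibroblast and mesothelial markers in LDAH-KO given above stood beside it, which was not tested. *Mcoln1*, a lysosomal cation channel that can pass iron, had opposite signs in the mutants, with 188 TPM in LDAH-Tg against 159 TPM (log2 ratio 0.24) and 115 TPM in LDAH-KO against 156 TPM (-0.43). *Slc39a8*, a divalent metal transporter, was at 3.64 TPM in LDAH-Tg and 4.48 TPM in its controls (-0.27).

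The haem genes were led by *Hmox1*, the enzyme that frees iron from haem. *Hmox1* was at 1660 TPM in the controls of LDAH-Tg, 1610 TPM in LDAH-Tg, 1210 TPM in the WT controls of LDAH-KO and 1220 TPM in LDAH-KO, so its log2 ratios were -0.046 and 0.018. *Abcg2*, a porphyrin exporter, was at 7.55 TPM in LDAH-Tg and 10.8 TPM in its controls (-0.49), and at 23.7 and 27.8 TPM in LDAH-KO and its controls (-0.23). *Lrp1*, the receptor for haem bound to haemopexin, was at 157 TPM in LDAH-KO and 201 TPM in its controls (-0.36). *Blvra*, a biliverdin reductase, was at 286 TPM in LDAH-Tg and 320 TPM in its controls (-0.17). In LDAH-KO *Blvra* was at 365 TPM and in its controls at 323 TPM (0.18), so its signs were opposite. Of the 7 haem genes with a ratio, 6 were lower in LDAH-Tg and 2 in LDAH-KO, beside 49.5% and 66.6% of all genes.

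Of 8 genes of ferritin loading and other storage and export, 3 had a ratio. *Pcbp1*, the chaperone that loads iron into ferritin, was at 199 TPM in LDAH-Tg and 242 TPM in its controls (log2 ratio -0.28) and at 250 TPM in both groups of the knockout line. *Ltf*, lactoferrin, was at 2.4 and 2.32 TPM in LDAH-Tg and its controls (0.042) and at 3.37 and 2.88 TPM in LDAH-KO and its controls (0.19), and *Pcbp2* at 135 TPM in LDAH-KO and 140 TPM in its controls (-0.056). *Hamp*, which encodes the hormone hepcidin that removes ferroportin from the cell surface, was listed at 0 in 3 groups and at 0.129 TPM in LDAH-Tg (named for its function, after its values were seen).

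Of 11 regulators, 5 had a ratio, with 4 lower in the transgenic PM and 5 lower in the knockout PM (49.5% and 66.6% of all genes). *Nfe2l2*, which encodes the activator NRF2 of ferritin, ferroportin and *Hmox1* genes, was at 185 TPM in LDAH-Tg and 228 TPM in its controls (log2 ratio -0.30). *Bach1*, the haem-sensing repressor of the same genes, was at 39.3 TPM in LDAH-KO and 44.6 TPM in its controls (-0.18). *Epas1*, a hypoxia-inducible factor, was at 63.4 TPM in LDAH-KO and 78.5 TPM in its controls (-0.31). *Zfp36*, an mRNA decay factor that targets *Tfrc*, was at 74.0 TPM in LDAH-Tg and 67.2 TPM in its controls (0.14). In LDAH-KO *Zfp36* was at 30.3 TPM and in its controls at 33.0 TPM (-0.12), so on the means as deposited its signs were opposite.

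Of 20 genes of mitochondrial iron, iron-sulphur clusters and haem synthesis, 19 had a ratio, and 10 were lower in LDAH-Tg (49.5% of all genes) and 7 in LDAH-KO (66.6% of all genes). *Slc25a37*, mitoferrin 1, was at 21.9 TPM in LDAH-Tg and 16.2 TPM in its controls (log2 ratio 0.43) and at 7.31 TPM in LDAH-KO and 8.95 TPM in its controls (-0.275), so its signs were opposite.

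**Figure D4:**
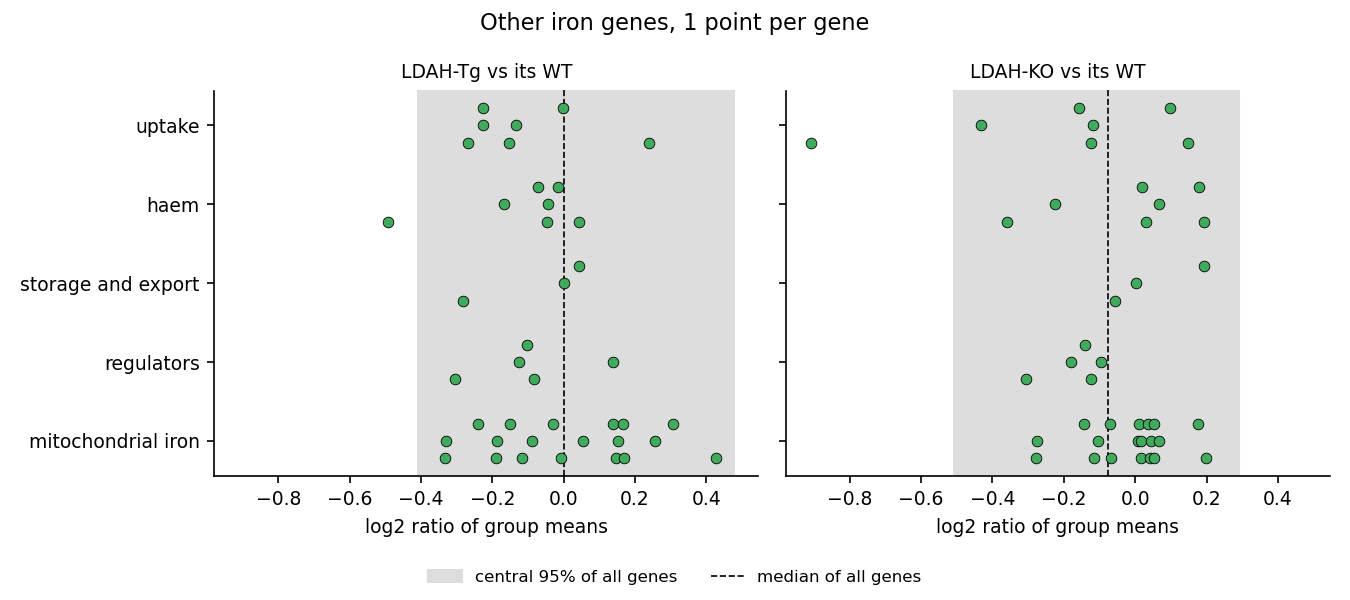
Log2 ratios of the other iron genes with a mean of at least 1 TPM, by list, 1 point per gene (points are spread vertically for sight alone), with the central 95% of all genes in grey and their median dashed. Most points lie inside the grey range; *Abcg2* (-0.49) lies below it in LDAH-Tg and *Steap4* (-0.91) in LDAH-KO.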

How the data were processed

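Poly(A)-enriched RNA of 16 samples (4 per group) was sequenced in stranded libraries with paired ends. Per the submitters' processing notes, the tools were Trimmomatic, STAR (2.4.2a), HTSeq, Cuffdiff (2.2.1) and DESeq2, and the genome build was GRCm38. The tool that made the TPM values and the annotation release are not given in the sources used here. The authors deposited group mean TPM values in 4 columns for 48432 genes. One further line with no gene, which holds the column total, was left out.

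Here, group means were compared as log2((a + 0.5)/(b + 0.5)) for genes with a mean of at least 1 TPM and no group at 0. A symbol on several entries was resolved by the GENCODE M21 name, and coordinates (1-based) are from that release. Of the gene identifiers, 99.2% were matched. Shared sequence was searched as 50-base stretches over all M21 transcripts on both strands, and iron-responsive elements on the sense strand. The log2 ratio and the filter alone were tested, on real control means with known changes put in. Members and lists were chosen with earlier results of these data known. Named genes are the 10 members, other iron genes past the factor or among the 2 largest ratios of each list, *Hmox1*, the 3 genes nearest in pattern to *Slc40a1* and *Tfrc*, and ferritin copies. A gene that this rule names is not reported here. 2 listed haem genes were not analysed here. Alternatives were pseudocounts of 0.1 and 1, no filter, a minimum of 5 TPM, median-ratio scaling, quantile normalization and factors of 5/4 and 2. Python 3.11.15, numpy 2.4.6 and pandas 2.3.3 were used.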

Additional observations from a re-analysis of the deposited data

How the results depend on the processing

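No paired analysis was possible because the columns hold group means, and values without single replicates could not be computed for the same reason. Depth is unknown. Of the 8 alternatives, the 2 other factors leave ratios as they are. Over the rest, 135 ratios of the 10 genes were recomputed: 132 kept their sign and 3 changed it. Of the 135, 23 moved by 0.1 or more on the log2 scale. A pseudocount or a filter cannot change a sign, so only the ratios under the 2 scalings could do so. Those that changed sign were *Tfrc* (0.043) and *Slc11a1* (0.029) in LDAH-KO under median-ratio scaling and *Ireb2* (-0.008) between the control groups under quantile normalization. Under median-ratio scaling the median log2 ratio of the members was -0.028 in LDAH-KO and 0.385 between the control groups, and that of the other iron genes 0.125 and -0.036. Under quantile normalization the medians between the control groups were 0.40 and -0.077. Members past the factor were 1 in LDAH-KO with no filter, through *Cp*. Between the control groups there were 3, and 2 under either scaling, where *Slc11a2* was lost. With a factor of 5/4 there were 6 between the control groups. With a factor of 2 there were 0 in LDAH-Tg and 1 between the control groups. All genes past the factor numbered 222 in LDAH-Tg and 251 in LDAH-KO, 388 and 460 with no filter, 96 and 75 at a minimum of 5 TPM, 1438 and 1338 at a factor of 5/4, and 49 and 63 at a factor of 2. Between the control groups they were 4404, and 7222 and 1708 at factors of 5/4 and 2. Of the genes past 1.5 there, 3027 were higher and 1377 lower, against 2074 and 2120 after quantile normalization and 2233 and 1974 after median-ratio scaling. In LDAH-KO 44 were higher and 207 lower, against 67 and 137 after median-ratio scaling and 69 and 129 after quantile normalization. The cause was not tested.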

Other observations

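The genes most like *Ncoa4* in the pattern of the 4 group means, looked up after its values were seen, were *Gm28036*, *Tm4sf19* and *B3gnt2*, and the largest difference in centred log2(TPM + 0.5) was 0.0745 for the nearest and 0.172 for the third. *B3gnt2* was at 18.9 TPM in the controls of LDAH-Tg, 12.8 TPM in LDAH-Tg, 149 TPM in the WT controls of LDAH-KO and 125 TPM in LDAH-KO. *Tm4sf19* was at 13.8, 7.57, 137 and 106 TPM in the same order. Each was higher in both groups of the knockout line and lower in each mutant than in its own controls, as *Ncoa4* was. Since these genes were picked for that pattern, the likeness follows from the choice and lends no weight to the values of *Ncoa4*.

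*Trf*, which encodes transferrin, was among the iron genes that stood the other way between the lines (chosen after its values were seen). It was at 440 TPM in the controls of LDAH-Tg, 439 TPM in LDAH-Tg, 153 TPM in the WT controls of LDAH-KO and 170 TPM in LDAH-KO. *Lrp1* was likewise lower in the knockout line, at 789, 750, 201 and 157 TPM. The line and any batch cannot be told apart. Of the protein-coding genes, 13 were listed at 0 in some group and at 100 TPM or more in another.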
